A study of Homo sapiens with 2 samples.

Results

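The transcript clusters described here are the rows of a Human Transcriptome Array whose platform annotation gives 1 gene symbol that starts with LINC, the prefix for long intergenic noncoding RNA genes. A transcript cluster is 1 summarised value for an annotated transcript locus. There were 559 such rows among 23781 rows with 1 symbol and 70523 rows in the whole table, and they carried 543 distinct symbols. Membership rested on the symbol alone and used no measured value.

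Both states of NCI-N87 cells were measured, with 1 array each. This line comes from a gastric carcinoma and carries an amplified ERBB2 gene, which encodes the receptor HER2. The first array held total RNA of untreated parental cells. The second held total RNA of a line of the same cells labelled as TDM-1 resistant. TDM-1 is the labels' spelling for trastuzumab emtansine, a conjugate of a HER2 antibody with a microtubule poison. Neither the dose nor the length of selection is stated in the labels, nor whether the resistant line is a single clone. They also do not say whether the drug was present at harvest. With 1 array per group there are no replicates, so no difference below was checked against the spread between cultures, no test was possible, and all values describe these arrays. Precision is limited by having so few arrays.

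Long intergenic noncoding RNAs are transcribed, often spliced and polyadenylated, from stretches between protein-coding genes. Many are present at low abundance and in few tissues. Some act near their own locus on the expression of neighbouring genes, others act elsewhere in the nucleus or in the cytoplasm, and for most of them no function is known. Some loci first named as noncoding were later found to encode small proteins and were renamed. A LINC gene that starts close to a coding gene on the opposite strand can share its promoter, and such RNAs are called divergent transcripts.

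The reported quantity is the value on the resistant array minus that on the parental array, on the deposited log2 scale. Rows that differ by 1 or more, which is 2-fold, are called, provided the higher of their values reaches 5.79. That floor is the median, over all 22411 genes with 1 symbol, of the higher of the gene's values. It was set for this description and does not mark detection, since the table carries no detection calls. Where the dimmer value fell short of the floor, the fold is a lower bound against 5.79, written "at least".

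The promoter sequences of the 3 LINC genes with the lowest called differences and of the 3 called higher are shown because these genes carry the main differences below. Each window holds 250 bases before and 50 bases after the annotated start, 5′ to 3′ on the gene's own strand, from RefSeq on GRCh38.p14. The genome build of the array rows is unstated, so the windows place the genes and not the probes. Capitals mark matches on either strand to TATAAA (the core of the TATA box), to CCAAT, to GGGCGG (a GC box) or to TGANTCA (an AP-1 site core). None of the matches shown overlaps another.
LINC00622, chr1:119599242-119599541, minus strand: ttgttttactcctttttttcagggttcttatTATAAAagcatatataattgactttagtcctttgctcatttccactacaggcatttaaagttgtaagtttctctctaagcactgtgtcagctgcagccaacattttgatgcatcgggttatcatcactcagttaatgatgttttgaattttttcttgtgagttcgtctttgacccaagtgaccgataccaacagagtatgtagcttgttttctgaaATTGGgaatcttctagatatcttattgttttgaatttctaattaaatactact
LINC00941, chr12:30795431-30795730, plus strand: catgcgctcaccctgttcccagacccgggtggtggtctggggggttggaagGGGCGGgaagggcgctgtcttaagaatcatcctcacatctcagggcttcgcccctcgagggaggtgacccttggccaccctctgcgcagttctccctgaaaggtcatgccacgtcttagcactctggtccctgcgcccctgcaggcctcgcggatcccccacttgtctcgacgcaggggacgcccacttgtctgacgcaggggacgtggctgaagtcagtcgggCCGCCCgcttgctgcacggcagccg
LINC01234, chr12:113773634-113773933, minus strand: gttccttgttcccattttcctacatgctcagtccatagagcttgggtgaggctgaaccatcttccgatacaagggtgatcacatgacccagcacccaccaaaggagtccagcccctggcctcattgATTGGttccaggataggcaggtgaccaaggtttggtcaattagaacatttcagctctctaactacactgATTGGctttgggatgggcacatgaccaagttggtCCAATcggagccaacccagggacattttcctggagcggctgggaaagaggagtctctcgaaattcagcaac
LINC03033, chr14:61570290-61570589, plus strand: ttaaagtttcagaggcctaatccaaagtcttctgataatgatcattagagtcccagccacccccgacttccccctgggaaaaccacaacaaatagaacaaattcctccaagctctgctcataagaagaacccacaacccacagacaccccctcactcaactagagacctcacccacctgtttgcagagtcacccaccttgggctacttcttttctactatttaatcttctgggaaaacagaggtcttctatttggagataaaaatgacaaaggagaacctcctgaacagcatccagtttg
LINC00997, chr7:32758036-32758335, plus strand: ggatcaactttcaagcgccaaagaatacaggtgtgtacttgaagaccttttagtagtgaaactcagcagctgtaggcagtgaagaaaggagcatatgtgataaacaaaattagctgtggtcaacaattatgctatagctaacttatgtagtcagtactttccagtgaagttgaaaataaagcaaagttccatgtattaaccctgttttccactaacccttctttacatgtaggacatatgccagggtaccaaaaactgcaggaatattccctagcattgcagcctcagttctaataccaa
LINC00920, chr16:66408274-66408573, plus strand: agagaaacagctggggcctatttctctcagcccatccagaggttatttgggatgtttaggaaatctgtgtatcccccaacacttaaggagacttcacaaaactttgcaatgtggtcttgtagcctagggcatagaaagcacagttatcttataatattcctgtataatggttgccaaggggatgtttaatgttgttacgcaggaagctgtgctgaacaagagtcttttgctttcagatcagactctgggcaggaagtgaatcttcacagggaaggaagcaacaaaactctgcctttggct

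The windows of the genes that were lower differed in composition. LINC00622 had 33.3% G and C, with TATAAA 219 bases before the start and CCAAT 3 bases before it, the latter on the opposite strand. LINC00941 had 66.0% G and C, with 2 GGGCGG matches. LINC01234 had 51.0% G and C, with 3 CCAAT matches. None of these motifs was found in the windows of LINC03033, LINC00997 and LINC00920, whose G and C content was 45.0%, 39.0% and 43.7%. A match is a description of the letters and not of a bound site.

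LINC rows were dim. The median of the mean over both arrays was 4.28 for LINC rows, with quartiles of 3.91 and 4.86. It was 4.42 for 795 antisense rows, whose symbols end in -AS with or without a number, and 6.22 for 18201 protein-coding rows. Of the 559 LINC rows, 83 (14.8%) reached the floor on at least 1 array, against 13.5% of antisense rows, 56.6% of protein-coding rows and 49.6% of all rows with 1 symbol. Different probes measure different rows, so these are comparisons of distributions and not of 1 gene with another.

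**Figure D1:**
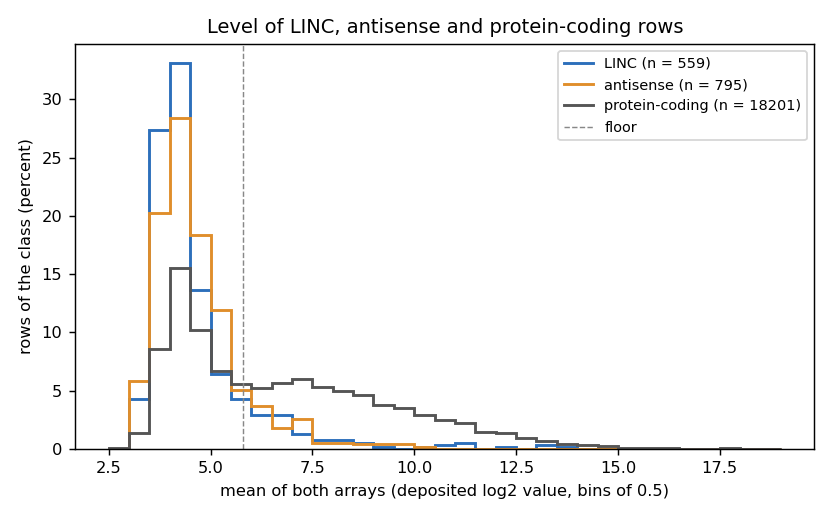
Distribution of the mean of both arrays (x axis, deposited log2 value in bins of 0.5) as percent of the rows of each class (y axis) for LINC, antisense and protein-coding rows, with the floor dashed. The LINC and antisense rows sit mostly between 3.5 and 5, while the protein-coding rows extend far to the right.

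A few LINC rows were bright. LINC01000 had the highest mean level, with 13.4 in parental and 13.8 in resistant cells. LINC01002 was 13.6 and 13.1. LINC00273 followed at 12.9 and 13.1. These values differed by less than 0.5 between the arrays. The next rows in level were LINC01001 (12.44 and 12.04), LINC00999 (11.4 and 11.3), LINC00265 (11.1 and 11.4), LINC01061 (11.1 and 11.0) and LINC00963 (10.9 and 11.0). None of these 8 rows was called. LINC00273 shows that a bright row need not speak for its symbol, because its second row was at 4.11 and 4.30. In all, 10 LINC rows had a mean of 10 or more, which is 1.79% of them, against 13.2% of protein-coding rows.

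Most LINC rows hardly differed between the arrays. The absolute difference was under 0.5 for 505 of 559 rows (90.3%), against 75.8% of all rows with 1 symbol, and 20 LINC rows had identical values on both arrays. The median difference over all LINC rows was 0.026, and that over all rows with 1 symbol was 0.026 as well. Among the 83 rows that reached the floor the median was -0.10, with quartiles of -0.69 and 0.18, and 48 had a negative difference. Among all rows at the floor the median was 0.017 and 48.1% were negative.

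By the size rule, 3 LINC rows (0.537%) were higher in resistant cells and 13 (2.33%) were lower. Together these are 2.86% of the LINC rows, against 9.27% of all rows with 1 symbol, 1.76% of antisense rows and 11.3% of protein-coding rows, of which 6.12% were higher and 5.20% lower. Among rows that reached the floor the shares were close, with 19.3% of LINC rows and 18.7% of all rows called. Split by direction, 3.61% of LINC rows at the floor were higher and 15.7% lower, whereas among all rows at the floor 9.80% were higher and 8.89% lower, and among protein-coding rows 10.8% and 9.19%. Antisense rows at the floor also had more lower than higher calls, at 11.2% and 1.87%. One of the 13 lower rows lies on chromosome Y. It is counted here, and the values of the 7 LINC rows of that chromosome are not given.

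Rows of like level were also compared, in 4 bins bounded by the quartiles of mean level over all rows with 1 symbol. The lowest bin, below 4.32, held 52.6% of LINC rows and none of its 294 LINC rows differed by 1 or more. The bin between 4.32 and 5.57 held 182 LINC rows, of which 2 (1.10%) did, against 2.44% of protein-coding rows there. Between 5.57 and 8.02 it was 13 of 66 LINC rows (19.7%) against 16.6% of protein-coding rows. Of those 13, 10 were lower, which is 15.2% of the LINC rows of the bin, and 7.52% of its protein-coding rows were lower. The top bin held 17 LINC rows, 2 of them (11.8%) lower by 1 or more and none higher. Of its protein-coding rows 21.6% differed by 1 or more, with 11.6% higher and 9.94% lower, so the share of lower rows was close in both classes there. The median absolute difference went from 0.125 in the lowest to 0.385 in the bin between 5.57 and 8.02 for LINC rows and from 0.094 to 0.367 for protein-coding rows. In the top bin it was 0.307 for the 17 LINC rows and 0.469 for protein-coding rows.

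**Figure D2:**
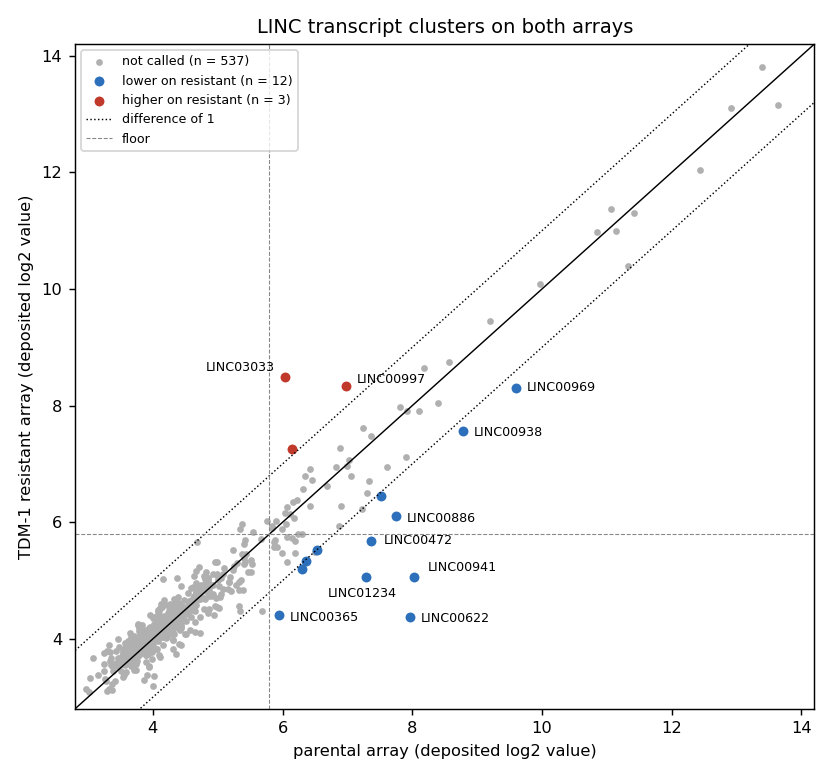
Parental value (x axis) against resistant value (y axis), both deposited log2 values, for the 552 LINC rows outside chromosome Y, with the 12 rows called lower in blue and the 3 called higher in red. Most rows lie near the diagonal below the floor (dashed), and the rows beyond the dotted lines, which mark a difference of 1, are mostly on the lower side.

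LINC00622 on chromosome 1 had the largest difference of any LINC row outside chromosome Y. It was 7.96 in parental and 4.37 in resistant cells, a difference of -3.59. The resistant value lay under the floor, and against the floor the row was at least 4.51-fold lower.

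LINC00941 and LINC01234 on chromosome 12 have both been described in gastric and other carcinomas. LINC00941 was 8.02 in parental and 5.06 in resistant cells, a difference of -2.96, or at least 4.70-fold lower against the floor. LINC01234 was 7.28 and 5.05, a difference of -2.23, or at least 2.81-fold lower. Another row of that chromosome, LINC00938, stayed above the floor on both arrays. It was 8.77 and 7.57, a difference of -1.21. LINC00941 and LINC00938 follow each other in the order of the LINC rows along chromosome 12, as LINC00622 and LINC00623 do on chromosome 1. That order leaves out coding genes. The members of each pair have different coding neighbours, so neither pair is 1 locus.

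LINC00472, LINC00886 and LINC00365 were lower by intermediate amounts. LINC00472 on chromosome 6, described as lower in several carcinomas than in normal tissue, was 7.36 in parental and 5.68 in resistant cells, a difference of -1.68. LINC00886 on chromosome 3 was 7.74 and 6.10, a difference of -1.64. LINC00365 on chromosome 13 was 5.94 and 4.40, a difference of -1.54. Its parental value lay just above the floor, against which it was at least 1.11-fold lower. Protein-coding rows of chromosome 13 that reached the floor had a median difference of -1.09, and less this median LINC00365 differed by -0.44, which is under the size rule. Those coding rows were not matched to LINC00365 in level.

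LINC00969, now named MIR570HG as the host gene of a microRNA, was the brightest row called. It was 9.59 in parental and 8.30 in resistant cells, a difference of -1.29. Among the other lower rows, all on chromosome 1, LINC00115 differed by -1.10, LINC00875 (now LINC01138) by -1.08, LINC00623 by -1.03 and LINC00869 by -1.01. Chromosome 1 thus held 5 of the 12 lower rows outside chromosome Y. It also held the most LINC rows at the floor, 8 of the 80 outside chromosome Y. Its protein-coding rows at the floor had a median of 0.092. Under quantile normalization LINC00623 differed by -0.99 and LINC00869 by -0.96, just under the size rule. LINC00869 had a second row, which was 5.68 and 4.47, a difference of -1.21, with both values under the floor. Copies of LINC00623, LINC00875 and LINC00869 and of the NBPF genes near them are duplicated on chromosome 1, so their rows may share signal and are uncertain as measures of 1 locus. The count of 5 lower rows on chromosome 1 may therefore exceed the number of separate loci. Of the 12 lower rows, 8 had a resistant value under the floor.

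Rows called higher were LINC03033, LINC00997 and LINC00920. LINC03033 on chromosome 14 was 6.04 in parental and 8.49 in resistant cells, a difference of 2.45. LINC00997 on chromosome 7 was 6.98 and 8.33, a difference of 1.35. Protein-coding rows of chromosome 7 had a median of 0.61, and less this median LINC00997 differed by 0.74, under the size rule. These coding rows were likewise not matched to LINC00997 in level. LINC00920 on chromosome 16 was 6.15 and 7.25, a difference of 1.10. All 3 were at or above the floor on both arrays.

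**Figure D3:**
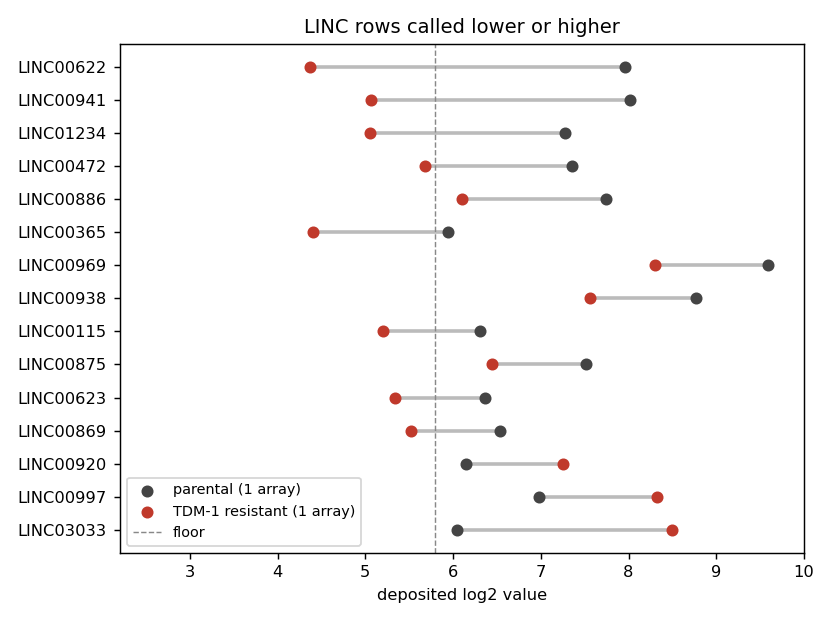
Deposited log2 value (x axis) on the parental (grey) and the TDM-1 resistant array (red) for the 15 called LINC rows outside chromosome Y (y axis), 1 array each, with the floor dashed. The distance between the points is largest for LINC00622 and, in the other direction, for LINC03033.

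A further group of rows reached the floor and differed by at least 1.5-fold but less than 2-fold. There were 11 lower and 1 higher. With the called rows included, 24 of the 83 LINC rows at the floor were lower by at least 1.5-fold and 4 were higher. Among all 11794 rows with 1 symbol at the floor, 2078 were lower and 2329 higher by that much. LINC00887 (-0.996, from 6.49 to 5.50) and LINC00893 (-0.99, from 7.23 to 6.23) lay just short of the threshold. LINC00893 and LINC00894 (-0.76, from 6.07 to 5.31) are now named EOLA1-DT and EOLA2-DT, the divergent transcripts of a pair of paralogous genes of chromosome X. EOLA2 itself was 6.43 and 6.34. LINC02210 had 3 rows, 1 of them on an alternative haplotype, and all were lower on the resistant array, with differences of -0.92 (11.3 to 10.4), -0.81 (7.30 to 6.49) and -0.72 (6.19 to 5.47). The remaining ones were LINC00342 (-0.93), LINC03040 (-0.78), LINC00667 (-0.67), LINC00444 (-0.63) and LINC01963 (-0.61) on the lower side and LINC01220 (0.59) on the higher side. LINC00667 had a second row that differed by -0.35.

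Some LINC genes with a described role or a later rename were listed for their own sake. Of 22 such symbols, 13 had a row with 1 symbol, of which 5 reached the floor. LINC00941 and LINC00472, described above, were called lower and none was called higher. Over all rows with 1 symbol at the floor 18.7% were called, and 5 rows are too few to set beside that share. LINC00152, now CYTOR, an RNA linked to cytoskeletal regulation, was 8.39 in parental and 8.04 in resistant cells, a difference of -0.36. LINC00467 was 6.99 and 6.96. LINC00339 was 5.77 and 6.02. These 3 were above the floor on at least 1 array and not called. The 8 under the floor included LINC00261 (3.55 and 3.70), which lies near the endoderm factor gene FOXA2, LINC-ROR (5.19 and 5.06), named as a regulator of reprogramming, LINC00511 (4.72 and 4.82) and LINC00460 (4.20 and 4.09). The others were LINC00668, LINC00958 and 2 that now count as coding, LINC00948 and LINC00961.

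The platform annotation is older than the NCBI gene table used for current names. Of the 559 rows, 38 belong to a gene with another symbol today, and 33 of these no longer carry a LINC symbol. By current type, 540 rows are long noncoding RNA genes, 14 are protein-coding and 5 are transcribed pseudogenes. None of the 14 coding rows was called, and their differences ran from -0.63 to 0.38. Just 2 of them reached the floor, where 18.7% of all rows with 1 symbol were called, so the absence of calls says little. LINC00961, now SPAAR, and LINC00948, now MRLN, encode small membrane proteins that regulate mTORC1 signalling and the muscle calcium pump. LINC00961 was 4.40 and 4.61, and LINC00948 was 4.15 and 4.05, both under the floor. Only LINC00444, whose gene is now listed as the succinyl-CoA ligase gene SUCLA2 (7.335 and 6.708), and LINC00083, now CLEC20A (7.06 and 6.798), reached it.

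Coding neighbours were taken from the order of genes in the NCBI table, as the nearest protein-coding gene with a row of 1 symbol on each side. For 6 of the 15 called rows (40%) a neighbour was called in the same direction. Among 1940 called protein-coding genes the same share was 26.2%. With neighbours limited to those within 100 kb, it was 3 of 12 LINC rows (25%) and 24.0% of coding genes, so the share of LINC rows was close to that of coding genes. For 1 LINC row a neighbour was called in the opposite direction.

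ZNF697, a zinc finger gene, flanks LINC00622. It was 8.90 in parental and 6.76 in resistant cells, a difference of -2.15. On the other side HSD3B1, which encodes a steroid dehydrogenase, did not reach the floor (4.41 and 4.15). One gene further, PHGDH, which encodes the first enzyme of serine synthesis, was 10.1 and 9.73, a difference of -0.42. At this locus the LINC row and 1 flanking gene were thus both lower, and the next gene was not called.

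CAPRIN2, a gene of the caprin RNA-binding family, flanks LINC00941 and was 8.51 and 6.93, a difference of -1.58. TSPAN11, a tetraspanin gene on the other side, was under the floor (4.801 and 4.863). UBL3, which encodes a membrane-anchored ubiquitin-like protein, is the nearest gene on one side of LINC00365, more than 100 kb away. It was 12.6 and 9.52, a difference of -3.04. KATNAL1, a katanin-like microtubule-severing gene on the other side, was 5.86 and 6.43. H2BC18, a histone H2B gene near LINC00869, differed by -1.06, from 5.93 to 4.87, and NBPF14 on the other side was 13.6 on both arrays. Histone H2B genes are nearly identical, so the H2BC18 row is uncertain.

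Flanking genes of LINC00920 and LINC00997 were higher with them. BEAN1 was 7.12 and 8.38, a difference of 1.26, while CDH5, the VE-cadherin gene on the other side of LINC00920, lay under the floor (4.04 and 4.14). AVL9, a gene of secretory transport next to LINC00997, was 9.53 and 10.6, a difference of 1.06. KBTBD2 on its other side differed by 0.19. AVL9 and LINC00997 are both on chromosome 7, and AVL9 lies more than 100 kb away.

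Other called rows had no neighbour called with them. LINC03033, with the highest difference, lies between PRKCH, a protein kinase C gene (7.94 and 8.33), and HIF1A, the gene of the hypoxia-inducible factor subunit (13.98 and 14.05), which differed by 0.39 and 0.073. LINC01234 lies between LHX5, a homeobox gene under the floor, and RBM19, a ribosome biogenesis gene that was 8.91 and 8.73. LINC00472 has OGFRL1 (9.74 and 9.38) and the synaptic gene RIMS1, under the floor, on its sides. LINC00886 lies between TIPARP, a mono-ADP-ribosyltransferase gene (9.17 and 8.81), and LEKR1 (5.34 and 4.72). LINC00938 is next to ARID2, a subunit gene of the PBAF chromatin remodeller, which was 11.6 and 11.2. ANO6, a phospholipid scramblase gene on its other side, was 10.9 and 11.3.

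The remaining lower rows had these neighbours. MUC20, a membrane mucin gene next to LINC00969, was 14.9 and 14.1, a difference of -0.78, and the lipocalin gene APOD was 6.03 and 6.14. SAMD11 and OR4F5, an olfactory receptor gene, flank LINC00115 and lay under the floor. GPR89B near LINC00875 was 9.42 and 8.96, and PPIAL4G was 5.18 and 5.74. NBPF8 near LINC00623 was 9.33 and 9.76. On the other side of LINC00623 the next coding gene with a row, FAM72C, was 7.555 and 10.004, a difference of 2.45, and it is the 1 neighbour called in the opposite direction. It lies more than 100 kb away and has near-identical copies, so its row is uncertain.

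With the 2 nearest coding genes on each side, 7 of the 15 called LINC rows (46.7%) had a gene called the same way, against 38.6% of called protein-coding genes. Of the genes one place further out, 3 were called, all lower. MUC4, a membrane mucin gene beyond MUC20 at LINC00969, was 9.96 in parental and 5.25 in resistant cells, a difference of -4.70. SLC7A1, a cationic amino acid transporter gene beyond UBL3 at LINC00365, was 13.7 and 12.08, a difference of -1.62. H2BC21, a histone gene beyond H2BC18 at LINC00869, was 10.7 and 9.03, a difference of -1.64, and is uncertain like H2BC18.

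**Figure D4:**
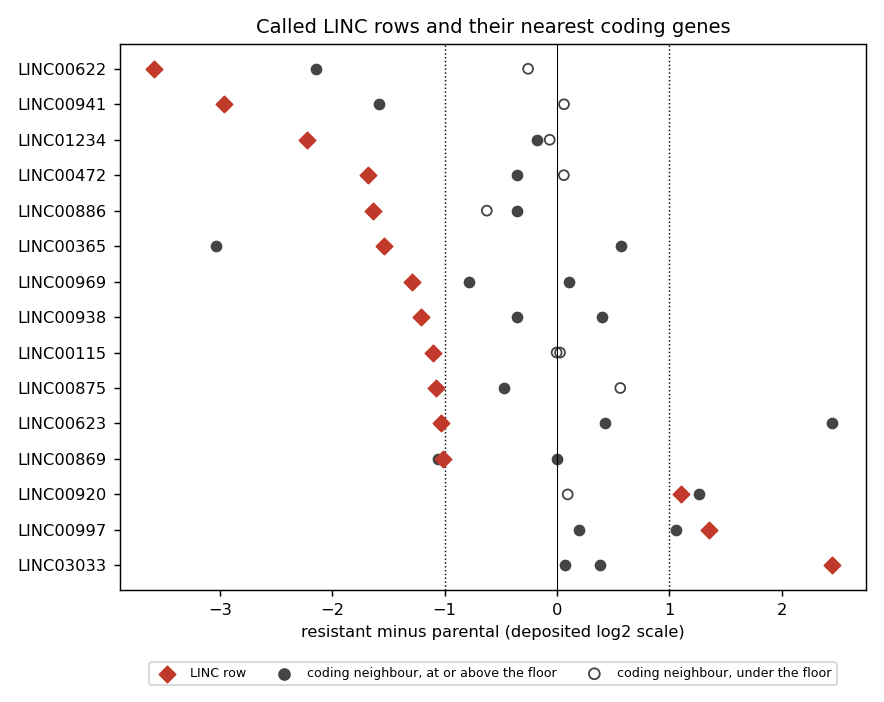
Resistant minus parental difference (x axis, deposited log2 scale) of the 15 called LINC rows outside chromosome Y (diamonds, y axis) and of the nearest protein-coding gene with a row on each side (circles, filled where the gene reached the floor). Dotted lines mark differences of 1 in either direction, and 6 LINC rows have a circle beyond the same line.

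Over the 67 LINC rows at the floor with a coding neighbour at the floor, the difference of the LINC row and the mean difference of its neighbours correlated with r = 0.33 (Pearson) and rho = 0.32 (Spearman). For 8470 protein-coding genes and their neighbours the values were 0.31 and 0.29. Without the 2 LINC rows farthest from the median, r was 0.16. These points share both arrays and, in part, chromosomes, so the correlations are descriptions across loci. Less the chromosome medians, r was 0.29 and rho 0.19 for the LINC rows. A called neighbour in either direction was found beside 7 of 15 called LINC rows (46.7%), 17 of 64 rows at the floor that were not called (26.6%) and 117 of 469 rows under the floor (24.9%).

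Chromosomes differed in their coding rows, and few LINC rows could be set beside them. Chromosome 13 held the most LINC rows, 75, but only 7 reached the floor. Of these 7, 5 had a negative difference, and their median was -0.32, against -1.09 for 164 protein-coding rows. They were LINC00365 (-1.54), LINC00444 (-0.63), LINC00362 (-0.42), LINC00539 (-0.32), LINC00449 (-0.10), LINC00381 (0.12) and LINC00415 (0.44). The higher values of these LINC rows ran only from 5.94 to 7.335, close to the floor. The protein-coding rows were not matched to them in level, so the medians are not a like comparison. The 68 LINC rows of the chromosome under the floor had a median of 0.041.

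On chromosome 7, 6 of 7 LINC rows at the floor had a positive difference, with a median of 0.31 against 0.61 for 454 protein-coding rows. Besides LINC00997 these were LINC01000 (0.41), LINC03009 (0.38), LINC00265 (0.31), LINC00957 (0.25) and LINC00174 (0.13), and LINC01004 differed by -0.20. On chromosome 6 the 3 rows at the floor were LINC00472 (-1.68), LINC03040 (-0.78) and LINC00266-3, which differed by less than 0.001, and the coding median was -0.32. Chromosome 12 had 5 LINC rows at the floor with a median of -1.21, while its coding median was -0.037. As on chromosome 13, the coding rows of these chromosomes were not matched to the LINC rows in level. No LINC row of chromosomes 5, 15 and 22 reached the floor.

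**Figure D5:**
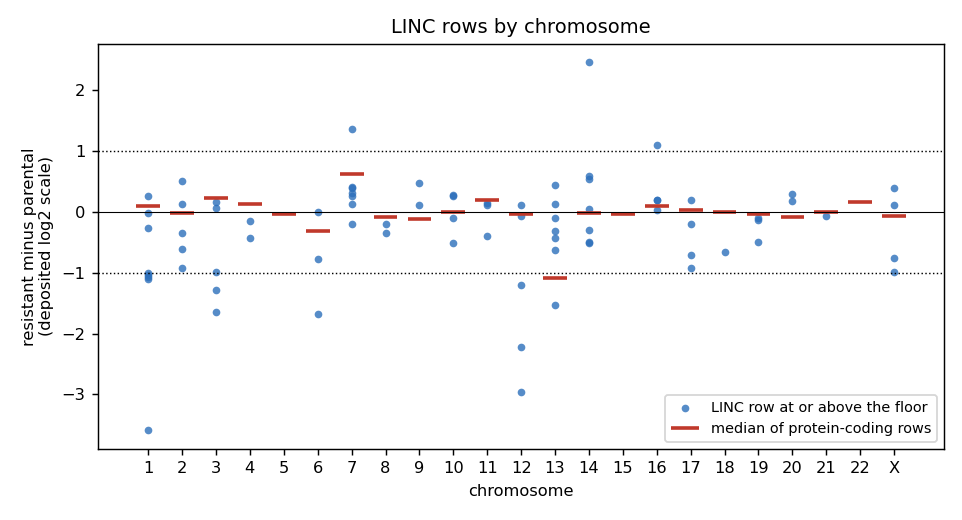
Resistant minus parental difference (y axis, deposited log2 scale) of each LINC row at or above the floor (points) by chromosome (x axis), with the median of protein-coding rows at the floor as a red bar. Chromosome 13 has the lowest bar (-1.09) and chromosome 7 the highest (0.61). LINC rows of chromosomes 1, 3 and 12 reach below -1, where the bars are at 0.092, 0.22 and -0.037. The protein-coding rows were not matched to the LINC rows in level.

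RefSeq promoter windows were found for 379 genes of LINC rows outside chromosome Y, a set that keeps genes now listed as coding. The median G and C content of the 379 windows was 50%, against 62.7% for 15843 protein-coding genes and 50% for 11462 long noncoding RNA genes. It was 56.7% for the 57 LINC genes at the floor and 48.8% for the 322 under it. GGGCGG occurred in 36.8% of windows of LINC genes at the floor, in 22.4% of those under it and in 44.6% of all 27305 windows. CCAAT occurred in 42.1%, 35.7% and 35.7% of the same windows, and TATAAA in 7.02%, 14.3% and 12% of them. TGANTCA was found in 14%, 14.6% and 7.76%. Most of all windows are those of coding genes. Among the 11462 long noncoding RNA genes GGGCGG occurred in 25.4%, CCAAT in 34.8%, TATAAA in 15.2% and TGANTCA in 10.5%. For all 379 LINC genes these shares were 24.5%, 36.7%, 13.2% and 14.5%. Over the 379 genes, G and C content correlated with mean level across genes with r = 0.18 and rho = 0.21, a weak relation.

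LINC genes that start within 1 kb of a coding gene and point away from it were few. There were 10 among the 379, of which 5 (50%) reached the floor, against 52 of the other 369 (14.1%). Their median level was 5.43, against 4.27 for the others, and their windows had a median of 68.5% G and C, against 49.3%. None of the 10 and 13 of the other 369 were called, and 10 genes are too few to compare these counts. LINC00950, now listed as the coding gene TMEM8B, is among the 10 and did not reach the floor. LINC00449 starts beside TM9SF2, which encodes a multispanning protein of the Golgi and endosomes. LINC00449 was 5.99 in parental and 5.88 in resistant cells, while TM9SF2 was 14.7 and 12.6, a difference of -2.09. LINC00205, beside the protein O-fucosyltransferase gene POFUT2, was 6.05 and 5.98, and POFUT2 was 5.90 and 5.97. The LINC00449 row thus differed far less than that of its coding partner, but it lay just above the floor of 5.79 on both arrays. Among the 4 pairs with a measured partner and the LINC row at the floor, 2 had differences of the same sign.

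Epithelial identity was checked with marker genes. Of 9 epithelial markers, 8 reached the floor, and their differences ran from -1.10 to 0.57. CDH1, the E-cadherin gene, was lowest in difference, at 15.1 and 13.97, past the size rule. The keratin gene KRT18 differed by -0.63, KRT8 by -0.27 and EPCAM by 0.57. The summed value of all 9 was 119.8 in parental and 118.2 in resistant cells. The gastric trefoil gene TFF1 did not reach the floor (3.36 and 3.47). None of the measured immune, fibroblast, endothelial and neuroendocrine markers reached the floor on either array. The summed value of the 4 measured immune markers was 17.4 in parental and 17.8 in resistant cells, that of the 4 fibroblast markers 18.3 and 17.4, that of the 3 endothelial markers 11.96 and 12.14, and that of the 2 neuroendocrine markers 8.93 and 9.23.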

How the data were processed

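Total RNA was hybridised to an Affymetrix Human Transcriptome Array, 1 array per group. The authors deposited 1 log2 value per row. Per the submitters' processing notes the software was Expression Console. The algorithm, log base, normalization, annotation version and build are not stated in these sources. The scale was taken as log2, and the column medians were 4.76 on both arrays.

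LINC rows were matched to the NCBI gene table of GRCh38.p14, 423 by gene identifier, 98 by symbol and 38 by synonym. Another 23 rows list a LINC symbol among several and were left out. The table served for names and gene order, using the 58961 of 59792 genes that lie on an assembled chromosome. For a coding gene with several rows, the brightest was taken as neighbour. Promoter windows are RefSeq's, 1 per gene.

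No test, error or p-value can be had from 1 array per group. The size rule is a log2 difference of 1 together with the floor of 5.79. Alternatives were median centring, quantile normalization, loess centring (span 0.3), subtraction of chromosome medians, other floors and thresholds, 1 row per gene, and membership by current symbol or type. Rows named were the called rows (at most 12 each way outside chromosome Y), the 8 brightest, 22 listed symbols, the neighbours of called rows, called rows that now count as coding and adjacent called rows. Rows differing by 1.5-fold to 2-fold, rows of chromosomes 6, 7 and 13, head-to-head pairs, second neighbours and the renamed LINC rows that now count as coding were chosen after their values were seen. The members and lists were chosen with earlier results of these data known. Chromosome Y rows were counted without giving values. Python 3.11.15, pandas 2.3.3, scipy 1.17.1 and statsmodels 0.14.6 were used.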

Additional observations from a re-analysis of the deposited data

How the results depend on the processing

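The counts of 3 higher and 13 lower LINC rows stayed within 1.5 times under median centring, quantile normalization, loess centring, subtraction of chromosome medians, 1 row per gene, both restrictions of membership, and without a floor. The rows behind the counts changed with subtraction of chromosome medians. LINC00997 and LINC00365 were then no longer called. LINC00415 (1.53) and LINC00381 (1.22), which differed by 0.44 and 0.12 as deposited, became higher, and LINC00887 (-1.22) became lower. The subtracted medians come from coding rows not matched to these LINC rows in level, so these changes depend on that choice. Raising the floor to the 75th percentile (8.42) left 1 higher and 2 lower, the 1.5-fold threshold gave 24 lower, and the 4-fold threshold left 1 higher and 3 lower. More lower than higher rows were called under all of these settings. The median difference of 0.026 was -0.0014 with loess centring and -0.10 over members at or above the floor only, so its sign depends on these settings. The 6 called rows with a coding neighbour called the same way became 3 with neighbours within 100 kb and 11 of 26 (42.3%, against 37.4% of coding genes) at 1.5-fold. Of 61 recomputed differences of the 15 named called rows, 57 kept the call and none changed sign; the 4 that did not are given with LINC00365, LINC00997, LINC00623 and LINC00869. Counts without chromosome Y rows were added after seeing the data, and 12 rows were then lower. No paired analysis was possible because each group has 1 array. Most LINC rows lie under the floor, where the size rule makes no call, and without detection calls in the table it is not known which of them carry signal above background.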

Other observations

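Other long noncoding RNA genes without a LINC symbol were listed for comparison, with earlier results of these data known. Of 40 listed, 20 were measured under 1 symbol, 14 of these reached the floor, and their median difference was -0.044. By the size rule 1 was called higher and 1 lower, while 18.7% of all rows with 1 symbol at the floor were called. UCA1, an RNA first described in urothelial carcinoma, was called higher, at 7.80 in parental and 12.1 in resistant cells, a difference of 4.28. MIR31HG, the host gene of a microRNA, was called lower, at 10.9 and 5.34, a difference of -5.57. Both differences are larger than that of any LINC row outside chromosome Y. MALAT1, an abundant nuclear RNA, was 17.3 and 16.8, and TUG1 was 15.2 and 14.3, and neither was called. HOTAIR, an RNA from the HOXC cluster, was 6.96 and 6.38.

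The LINC rows cover part of the genes now named so. The NCBI table lists 2317 genes whose symbol starts with LINC, and 508 of them had a member row. A further 42 rows with 1 older platform symbol belong to genes that carry a LINC symbol today and were not counted as members.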
